A study of Homo sapiens with 8 samples.

Results

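Glutathione synthesis, recycling and transfer are carried by 10 genes here, GCLC, GCLM, GSS, GSR, GSTP1, GSTM3, GSTO1, MGST1, MGST3 and GGT1. They were chosen by name for their roles, with no measured value in the rule but with earlier results of these data known. They are 10 of the 23686 gene symbols listed. All 10 passed the filter on low counts, among 14249 genes tested. After depletion of GPX1, the RNAs of GCLC and GSS, which carry out both steps of glutathione synthesis, were slightly higher in both breast cancer lines. The GSS call in HS578T and the GCLC call in MDA-MB-231 were lost under several alternative settings, and DESeq2 called GCLC in neither line. MGST3, a membrane-bound glutathione transferase, was lower in both. Its MDA-MB-231 call was lost by DESeq2 and without MDA-MB-231 siGpx1 replicate 1. MGST1, its relative, was higher in HS578T and did not pass the test in MDA-MB-231.

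Glutathione is a thiol peptide built from glutamate, cysteine and glycine, and it is the main soluble thiol of the cell. Glutathione peroxidases such as GPX1 oxidise it while they reduce peroxides, and glutathione reductase restores it with NADPH. Glutathione transferases couple it to electrophiles or use it to reduce substrates, transporters export the conjugates, and a surface enzyme breaks them down. The transcription factor NRF2 raises many genes of this system through a short promoter sequence, the antioxidant response element.

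RNA sequencing was done on 8 libraries from 2 human triple-negative breast cancer lines, HS578T and MDA-MB-231, to compare GPX1-depleted with control cells. The 4 groups were HS578T siGpx1, HS578T Control, MDA-MB-231 siGpx1 and MDA-MB-231 Control, with 2 libraries each. The titles of the depleted libraries name siGpx1, whereas their genotype label reads Gpx1-/-, and neither the kind of control nor the number of siRNAs is given. The source label counts upward between libraries of a line, so the line was taken from the cell line label. Each line is a single established line, and replicates are not stated to be separate cultures. The p-values therefore measure spread among these libraries alone, and that spread may be technical.

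GPX1 itself had 3.57 and 3.42 CPM in HS578T siGpx1, against 84.0 and 84.2 CPM in HS578T Control. It had 7.28 and 6.78 CPM in MDA-MB-231 siGpx1, against 194 and 209 CPM in MDA-MB-231 Control. CPM is the count scaled to a common library total after TMM normalization. For the cell type markers below, CPM was scaled to the library total alone, without TMM factors. Those factors ran from 0.893 to 1.089 over the libraries, so marker CPM are not on the scale of the other CPM. The depleted libraries stood far below their controls, with 24.0-fold less GPX1 RNA in HS578T and 28.6-fold less in MDA-MB-231. In bulk RNA, fewer cells of a kind and less RNA per cell cannot be told apart.

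Libraries held 12905808 to 14216365 estimated reads and 15584 to 15817 detected genes. The 2 HS578T siGpx1 libraries differed more from each other than other replicate pairs, with a mean chi-square of 3.86 per gene, against 1.34 to 1.91. The labels call both lines epithelial, yet EPCAM had 0 to 2 counts in each HS578T library, and CDH1 had 0 counts in both HS578T Control libraries. MDA-MB-231 libraries held 304 to 366 EPCAM counts. Summed over 9 breast epithelium markers, the level was 547 to 615 CPM in HS578T siGpx1, against 209 to 216 CPM in HS578T Control. In MDA-MB-231 it was 2500 to 2570 CPM with siGpx1, against 1650 to 1660 CPM in Control. Of these 9 markers, 4 were above 1 CPM in each HS578T group, 8 in MDA-MB-231 siGpx1 and 7 in MDA-MB-231 Control. KRT18 made up most of the HS578T sums, at a mean of 525 CPM with siGpx1 against 179 CPM in Control. KRT7 went the other way there, at 5.05 against 6.84 CPM. The 10 mesenchymal markers summed to 65000 to 72100 CPM in HS578T siGpx1, against 55400 to 55900 CPM in HS578T Control. In MDA-MB-231 they summed to 3440 to 3470 CPM with siGpx1, against 2740 to 2750 CPM in Control. FN1 made up most of the HS578T sums (mean 46300 against 35800 CPM), and VIM most of those in MDA-MB-231 (2380 against 1870 CPM). THY1 (349 against 871 CPM) and ZEB1 (89.6 against 111 CPM) were lower with siGpx1 in HS578T. PDGFRB averaged 148 against 152 CPM there, a gap whose direction depends on whether TMM factors are applied. Its counts overlapped, at 1871 to 2068 with siGpx1 and 2055 to 2159 in Control. In MDA-MB-231, ZEB1 was lower (87.7 against 100 CPM), and PDGFRB (10.2 against 10.3 CPM) and SPARC (1.05 against 1.13 CPM) were slightly lower. ESR1 had 0 to 3 counts in every library, whereas ERBB2, the HER2 gene, averaged 57.6 to 82.8 CPM over the 4 groups. PGR had 37 to 57 counts in the HS578T libraries and 0 to 2 in those of MDA-MB-231.

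Of other cell types, 6 leukocyte markers summed to 48.4 to 53.4 CPM in HS578T siGpx1, against 70.3 to 70.8 CPM in HS578T Control, and to 128 to 131 CPM in MDA-MB-231 siGpx1, against 123 to 127 CPM in MDA-MB-231 Control. CD68 made up most of these sums, at a mean of 45.1 CPM in HS578T siGpx1, against 65.6 CPM in HS578T Control, and CD3E was at 0 in all 8 libraries. CD14 went the other way in HS578T, at 5.76 CPM with siGpx1 against 4.69 CPM in Control. The 4 endothelial markers summed to 10.1 to 10.3 CPM in HS578T siGpx1, against 5.31 to 6.21 CPM in HS578T Control, and to 6.90 to 7.18 CPM in MDA-MB-231 siGpx1, against 5.98 to 6.17 CPM in MDA-MB-231 Control. PECAM1 averaged 9.13 CPM in HS578T siGpx1, against 5.36 CPM in HS578T Control, and CDH5 had at most 1 count. In MDA-MB-231, PECAM1 was lower with siGpx1 (2.52 against 3.76 CPM) and KDR was higher (4.51 against 2.24 CPM). The 4 basal markers summed to 128 to 151 CPM in HS578T siGpx1, against 88.9 to 97.2 CPM in HS578T Control, and to at most 2.17 CPM in MDA-MB-231. In each line the summed level of the epithelial, mesenchymal, leukocyte, endothelial and basal lists did not overlap between siGpx1 and Control, and their part in the changes below was not tested.

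Promoter windows that hold the core of the antioxidant response element are shown because NRF2 acts on this system through it. The core searched was TGACNNNGC on both strands, in RefSeq windows of 250 bases before to 50 bases after each gene start on build GRCh38.p14. Windows of 8 of the 10 genes were searched, GSS and GSR not being among them. Of their 11 windows 5 held the core, 1 each for GCLM, GSTP1, GSTO1, MGST1 and GGT1, and GSTO1's window held it at 2 places. Of all 35116 windows 13.3% held it. Each sequence reads 5′ to 3′ on the gene's strand, with the core in capitals, and where the capitals end in GTCA the core lies on the opposite strand. In order, the sequences are from chr1:93909446-93909474 (minus strand), then, all on the plus strand, chr11:67583736-67583764, chr10:104254656-104254684, chr10:104254721-104254749, chr12:16347135-16347163 and chr22:24603154-24603182.
GCLM: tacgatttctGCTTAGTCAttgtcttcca
GSTP1: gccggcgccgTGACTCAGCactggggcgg
GSTO1, upstream place: ggcggagggaTGACTGAGCatttataact
GSTO1, downstream place: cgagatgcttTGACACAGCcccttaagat
MGST1: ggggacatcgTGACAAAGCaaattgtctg
GGT1: ggaaggaggaGCTGGGTCAcagcagggaa
The core lay at bases -34 to -26 from the gene start in GCLM, at -66 to -58 in GSTP1, and at 31 to 39, inside the transcribed part, in MGST1. A match describes these letters and does not show that a factor binds there. Among the 5 genes with the core, MGST1 rose and GGT1 fell at a passing p in HS578T, where 50.7% of all tested genes passed. The GGT1 change turned to 0.127 on the log2 scale when the counts of related genes were added. None of the 5 passed in MDA-MB-231, where 42.6% of all tested genes did. Whether the core bears on these changes was not tested.

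GSTP1, the pi-class cytosolic transferase, had the highest level per transcript length in every library. The authors' TPM values, which divide by transcript length, put all genes on one scale. GSTP1 had 1043 and 1078 TPM in HS578T siGpx1 and 1057 and 1061 TPM in HS578T Control. It had 439 and 414 TPM in MDA-MB-231 siGpx1 and 429 and 448 TPM in MDA-MB-231 Control. MGST1 and GSTO1 followed in both lines, in that order in HS578T and in the opposite order in MDA-MB-231.

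GGT1 was lowest in every library, at 2.17 and 2.80 TPM in HS578T siGpx1, against 3.44 and 4.68 TPM in HS578T Control. In MDA-MB-231 it had 11.02 and 9.33 TPM with siGpx1, against 11.02 and 11.1 TPM in Control. GCLC stood next to lowest in MDA-MB-231, and GSTM3 did in HS578T. Within a group, neighbours in the order of levels had separate ranges over the 2 libraries, except GSS and GSR in HS578T siGpx1. MGST3 had 66.0 and 64.7 TPM in HS578T siGpx1, below GCLM, against 99.2 and 101 TPM in HS578T Control, above GCLM. The same pair changed places in MDA-MB-231, where MGST3 stood below GCLM in siGpx1 and above it in Control. The 10 genes together made up 0.182 and 0.192% of all TPM in HS578T siGpx1, against 0.184% in each HS578T Control library. In MDA-MB-231 they made up 0.139 and 0.142% in siGpx1, against 0.142 and 0.144% in Control.

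**Figure D1:**
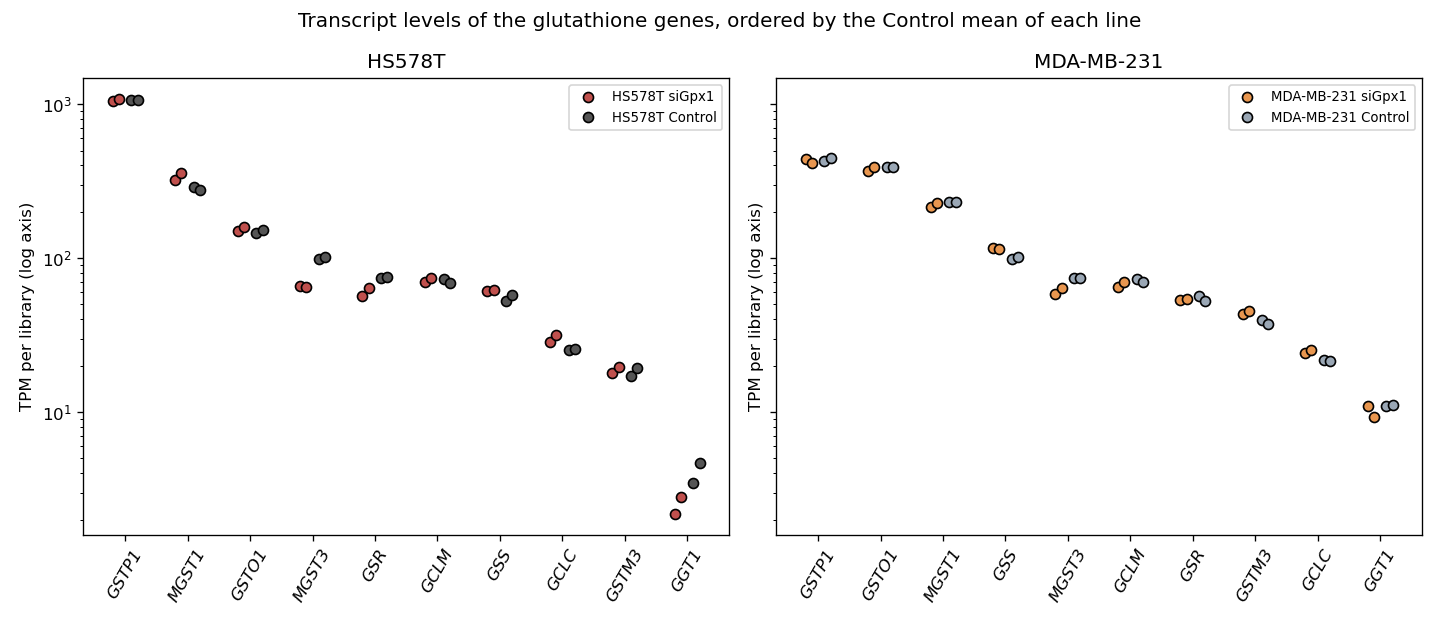
Level of each of the 10 genes in TPM on a log axis, 1 point per library, with siGpx1 left of Control within each gene and genes ordered by the Control mean of the line. GSTP1 is highest and GGT1 lowest in both lines, and in HS578T the siGpx1 points of MGST3, GSR and GGT1 lie below their Control points.

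Of the 10 genes, 6 passed an adjusted p under 0.05 between HS578T siGpx1 and HS578T Control, 3 higher (GCLC, GSS and MGST1) and 3 lower (GSR, MGST3 and GGT1). Adjusted p-values throughout come from edgeR's quasi-likelihood test, adjusted by Benjamini-Hochberg over all 14249 genes. In this comparison 50.7% of all tested genes passed, 28.6% higher and 22.1% lower, so the count is near the background. The majority turned to lower calls under the stricter filter (3363 higher, 3457 lower), with the line fitted alone (3188 and 3352), on the TPM scales (3313 and 3477 on log2(TPM + 1)) and without any 1 MDA-MB-231 library. The median log2 change of the 10 genes was 0.09, against 0.04 over all tested genes.

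In MDA-MB-231, 4 of the 10 passed between siGpx1 and Control, 3 higher (GCLC, GSS and GSTM3) and 1 lower (MGST3). Of all tested genes 42.6% passed there, 20.7% higher and 21.9% lower, and the count of members is again near that share. The median log2 change of the 10 genes was -0.05, against 0.00 over all tested genes. The split of all genes called was 2950 higher and 3116 lower. It turned to more higher calls under a stricter filter of 5 CPM in 2 libraries (3652 and 2544). The same held with DESeq2 size factors (3440 and 2757) and by DESeq2 (2304 and 1837), and narrowly without a filter (2968 and 2961). More calls stayed lower by limma-voom, with the line fitted alone, with replicate number as a block and on the TPM scales. The libraries of the groups did not overlap for 8 of the 10 genes in HS578T and for 6 of the 10 in MDA-MB-231, against 72.2% and 71.4% of all tested genes.

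**Figure D2:**
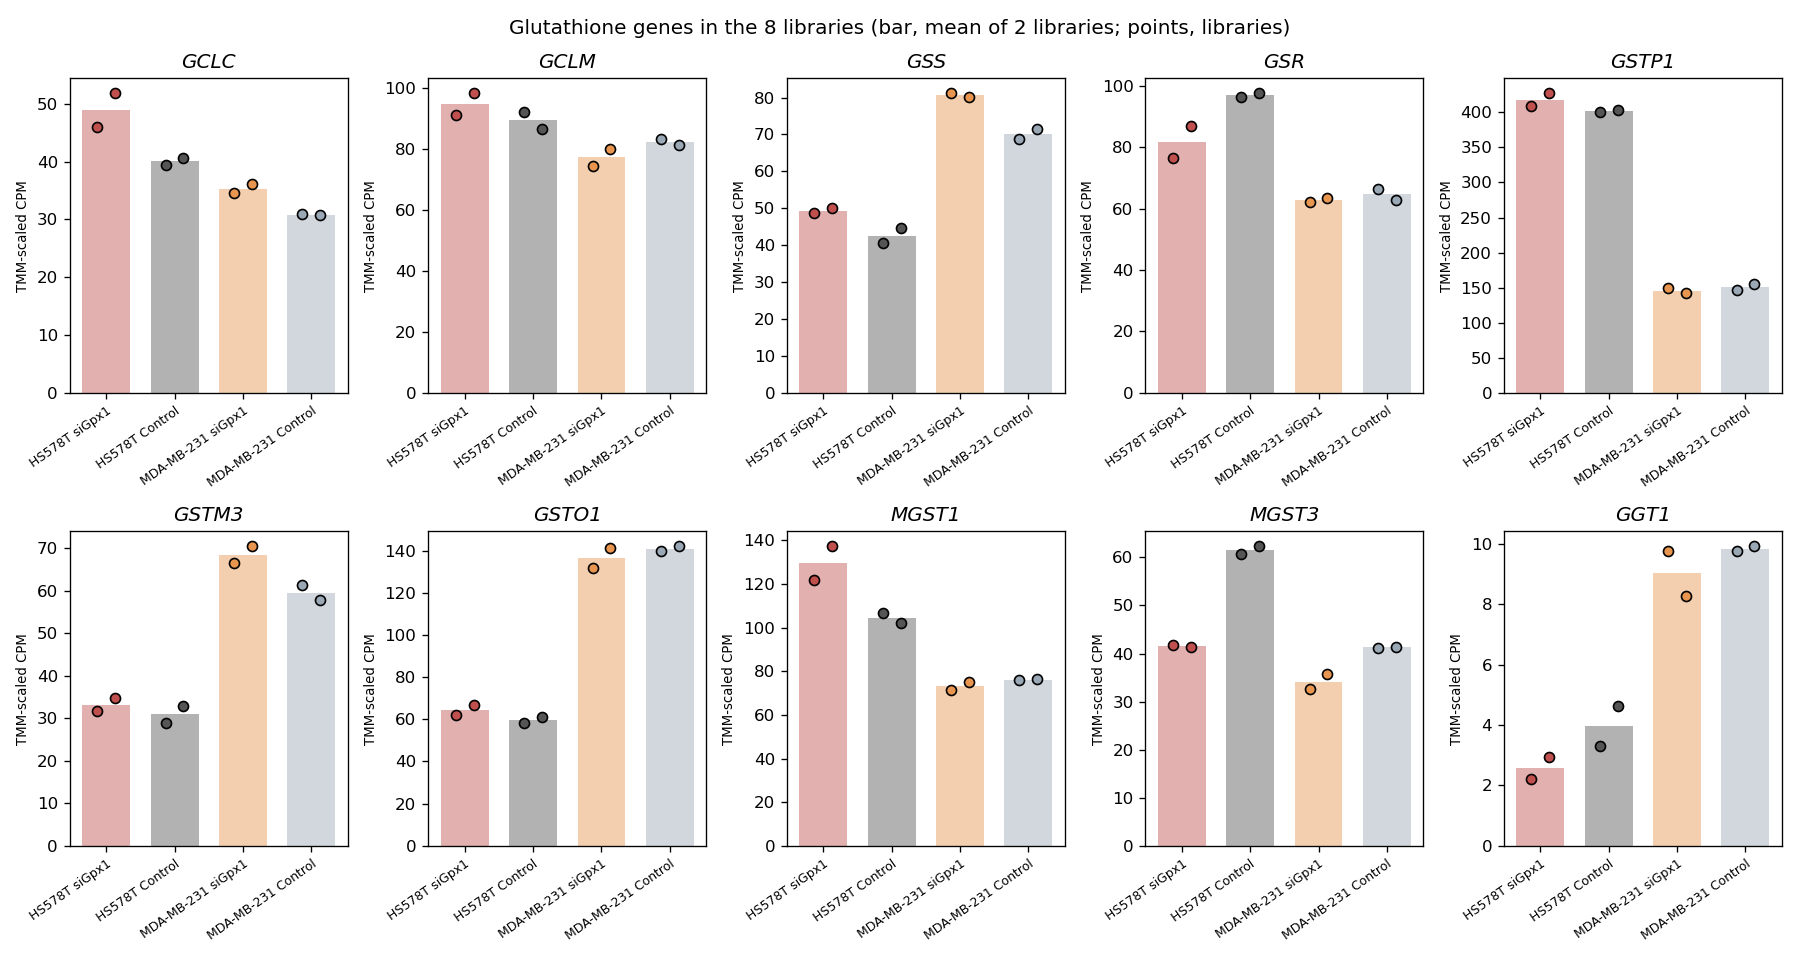
TMM-scaled CPM of each gene in the 8 libraries (points), with the mean of the 2 libraries of a group as a bar that starts at 0, and siGpx1 left of Control in each line. MGST3 is lower with siGpx1 in both lines, GCLC and GSS are higher in both, and the gaps between the lines for GSTP1, GSTO1, GSTM3 and GGT1 are larger than those between siGpx1 and Control.

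GCLC encodes the catalytic subunit of glutamate-cysteine ligase, the rate-limiting enzyme of glutathione synthesis. It had 46.0 and 51.8 CPM in HS578T siGpx1, against 39.4 and 40.7 CPM in HS578T Control. Both depleted libraries stood above both controls. The log2 change was 0.29 ± 0.07 (SE), or 1.22-fold higher, with adjusted p = 0.00247. DESeq2 did not call it (0.27, adjusted p = 0.0556), and over 18 alternatives the adjusted p ranged between 0.00103 and 0.0556. In MDA-MB-231 the levels were 34.5 and 36.1 CPM with siGpx1, against 30.95 and 30.7 CPM in Control, again without overlap. The log2 change there was 0.20 ± 0.07, or 1.15-fold, with adjusted p = 0.0392. Without HS578T Control replicate 2, MDA-MB-231 Control replicate 2 or MDA-MB-231 siGpx1 replicate 2 this call was lost, at log2 changes of 0.20, 0.24 and 0.21, and the adjusted p ranged between 0.00811 and 0.125 over all alternatives.

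GCLM, the modifier subunit that raises the activity of GCLC, did not pass in either line. It had 91.4 and 98.4 CPM in HS578T siGpx1, against 92.3 and 86.7 CPM in HS578T Control, with overlapping libraries. The MDA-MB-231 levels were 74.7 and 80.2 CPM with siGpx1, against 83.3 and 81.4 CPM in Control. The log2 changes were 0.08 ± 0.06 in HS578T and -0.09 ± 0.06 in MDA-MB-231, with adjusted p = 0.237 and 0.222.

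The ratio of GCLM to GCLC, in TPM, was lower in the depleted libraries of both lines. It was 2.47 and 2.36 in HS578T siGpx1, against 2.92 and 2.65 in HS578T Control. In MDA-MB-231 it was 2.69 and 2.76 in siGpx1, against 3.35 and 3.30 in Control. The groups did not overlap in either line, but with 2 libraries a group the ratio was not tested.

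GSS, glutathione synthetase, adds glycine in the last step of synthesis. It had 48.6 and 50.03 CPM in HS578T siGpx1, against 40.5 and 44.7 CPM in HS578T Control. The MDA-MB-231 levels were 81.1 and 80.1 CPM with siGpx1, against 68.7 and 71.4 CPM in Control. In both lines the depleted libraries lay above the controls. The log2 changes were close in size, 0.21 ± 0.07 in HS578T (adjusted p = 0.0149) and 0.20 ± 0.06 in MDA-MB-231 (adjusted p = 0.0106).

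The MDA-MB-231 call of GSS held in all 18 alternatives run. The HS578T call was lost in 9 of 18, among them without HS578T Control replicate 1 (log2 change 0.135), without HS578T siGpx1 replicate 2 (0.185) and without any 1 of the 4 MDA-MB-231 libraries (0.167 each time). Its adjusted p ranged between 0.0067 and 0.179 over the alternatives. The GSS to GCLC ratio in TPM was 2.15 and 1.96 in HS578T siGpx1 and 2.09 and 2.23 in HS578T Control. In MDA-MB-231 it was 4.79 and 4.52 with siGpx1 and 4.52 and 4.73 in Control, so the groups overlapped in both lines.

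GSR, glutathione reductase, returns oxidised glutathione to its reduced form and is the recycling enzyme of the set. It had 76.5 and 87.0 CPM in HS578T siGpx1, against 96.5 and 97.6 CPM in HS578T Control. Both depleted libraries were below both controls and stood further apart from each other than the controls did. The log2 change was -0.25 ± 0.06, or 1.19-fold lower, with adjusted p = 0.00299, and the call held in all 18 alternatives.

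In MDA-MB-231, GSR had 62.3 and 63.6 CPM with siGpx1, against 66.6 and 62.8 CPM in Control, and the libraries overlapped. The log2 change was -0.04 ± 0.06 (adjusted p = 0.671). The difference between the lines, 0.21 ± 0.09 on the log2 scale (MDA-MB-231 minus HS578T), did not pass (adjusted p = 0.119). It passed with DESeq2 size factors, with the stricter filter and without HS578T siGpx1 replicate 2, at 0.27, 0.31 and 0.32, and its adjusted p ranged between 0.00959 and 0.217 over the alternatives.

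Of the 3 cytosolic transferases, GSTM3 in MDA-MB-231 was the only one to pass between siGpx1 and Control in either line. GSTM3, a mu-class enzyme that conjugates electrophiles, had 66.5 and 70.5 CPM in MDA-MB-231 siGpx1, against 61.3 and 57.9 CPM in MDA-MB-231 Control. The depleted libraries lay above the controls, with a log2 change of 0.20 ± 0.07 and adjusted p = 0.0245. DESeq2 (0.24) and limma on the TPM scales (0.20 to 0.21) did not call it. Without MDA-MB-231 Control replicate 2 or siGpx1 replicate 2 the call was lost, at a log2 change of 0.21 both times, and the adjusted p ranged between 0.0017 and 0.0979 over 19 alternatives. In HS578T it had 31.6 and 34.7 CPM with siGpx1 and 28.95 and 32.9 CPM in Control, which overlap, and the log2 change was 0.10 ± 0.08 (adjusted p = 0.331). Reads that fit several mu-class genes are shared out by estimate, and GSTM1 held 279 to 1065 counts and GSTM4 301 to 629 counts in the same libraries.

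GSTP1 had 408 and 427 CPM in HS578T siGpx1, against 399.9 and 404 CPM in HS578T Control, a log2 change of 0.06 ± 0.04 (adjusted p = 0.255). Its MDA-MB-231 levels were 149.9 and 142 CPM with siGpx1, against 147 and 155 CPM in Control, a log2 change of -0.05 ± 0.04 (adjusted p = 0.42). The most abundant gene of the set thus differed by 1.04-fold in HS578T and 1.03-fold in MDA-MB-231, and neither difference passed the test. GSTO1, the omega-class enzyme that acts as a thioltransferase and dehydroascorbate reductase, had a log2 change of 0.11 ± 0.06 in HS578T, where the libraries of the groups did not overlap. Its log2 change in MDA-MB-231 was -0.05 ± 0.05, with overlapping libraries. Its adjusted p was 0.134 in HS578T and 0.468 in MDA-MB-231.

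MGST1 and MGST3 are membrane-bound relatives that conjugate glutathione and reduce lipid peroxides, and their RNAs moved in opposite directions in HS578T. MGST1 had 122 and 137 CPM in HS578T siGpx1, against 107 and 102 CPM in HS578T Control. MGST3 had 41.7 and 41.4 CPM in HS578T siGpx1, against 60.7 and 62.3 CPM in HS578T Control. Neither gene's groups overlapped.

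MGST1 rose by 0.31 ± 0.06 on the log2 scale, or 1.24-fold (adjusted p = 2.34e-04), and MGST3 fell by 0.56 ± 0.06, or 1.48-fold (adjusted p = 2.08e-06). Both calls held in all 18 alternatives. The MGST1 to MGST3 ratio in TPM was 4.87 and 5.53 in HS578T siGpx1, against 2.94 and 2.74 in HS578T Control.

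In MDA-MB-231, MGST1 had 71.2 and 75.2 CPM with siGpx1, against 75.9 and 76.4 CPM in Control, a log2 change of -0.06 ± 0.06 (adjusted p = 0.48). MGST3 had 32.6 and 35.7 CPM with siGpx1, against 41.2 and 41.4 CPM in Control. It fell by 0.28 ± 0.07 on the log2 scale, or 1.21-fold (adjusted p = 0.0029). This call was lost without MDA-MB-231 siGpx1 replicate 1, at a log2 change of -0.16, and by DESeq2, with an adjusted p between 0.00101 and 0.121 over the alternatives. The MGST1 to MGST3 ratio was 3.68 and 3.55 in MDA-MB-231 siGpx1, against 3.10 and 3.11 in MDA-MB-231 Control. In both lines the ratio was higher in the depleted libraries without overlap, and it was not tested.

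MGST3 was also the only one of the 10 genes whose 3′ untranslated region (UTR) held GGGCATC or GGCATCA, a pair of overlapping 7-base words. Earlier analysis of these data had singled the words out by their association with lower RNA after siGpx1, so the match is a description and carries no support. The full 8-base word lies in 3 of 4 annotated GPX1 transcripts, in 0 of them after the stop codon. Of 18320 genes of the files with a searched UTR, 12.6% held at least 1 of the words. The site below starts at base 95 of the 116-base UTR in GENCODE 29, on chromosome 1, with the word in capitals.
MGST3 site: aaacttacctGGCATCAgcctcatacc

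Over the 8 libraries, the genes whose levels were most like those of MGST3 were CTNNA1, RPSA, SLC35A5, CPSF3L and VDAC3. Likeness was the root mean square difference of log2 CPM after each gene was centred on its mean, over 11293 genes with a mean of at least 5 CPM. It was 0.033 for CTNNA1, which encodes alpha-catenin, and 0.057 for VDAC3, a mitochondrial outer membrane channel. The log2 change of CTNNA1 was -0.56 in HS578T (MGST3 -0.56) and -0.29 in MDA-MB-231 (MGST3 -0.28).

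GGT1 encodes a surface enzyme that cleaves extracellular glutathione and its conjugates, and it was the least abundant gene of the set. Its estimated counts were 25.9 and 35.5 in HS578T siGpx1, against 44.1 and 58.8 in HS578T Control. The depleted libraries were lower without overlap, with a log2 change of -0.62 ± 0.23, or 1.53-fold lower (adjusted p = 0.0378). The call was lost without HS578T Control replicate 2 (log2 change -0.37) and without HS578T siGpx1 replicate 1 (-0.44), by DESeq2 (-0.64) and limma-voom (-0.60), and with the line fitted alone (-0.67). When the counts of GGT3P, GGT8P, GGTLC1 and GGTLC2, whose sequences are close to GGT1, were added, the log2 change turned to 0.13. Its adjusted p ranged between 0.0141 and 0.518 over 19 alternatives.

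In MDA-MB-231, GGT1 had 145 and 116 estimated counts with siGpx1, against 148 and 153 in Control. The log2 change was -0.12 ± 0.15 and did not pass (adjusted p = 0.561). The effective length of GGT1 that the authors' quantification used varied by 2.2% between libraries and that of the other genes by at most 1.59%.

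**Figure D3:**
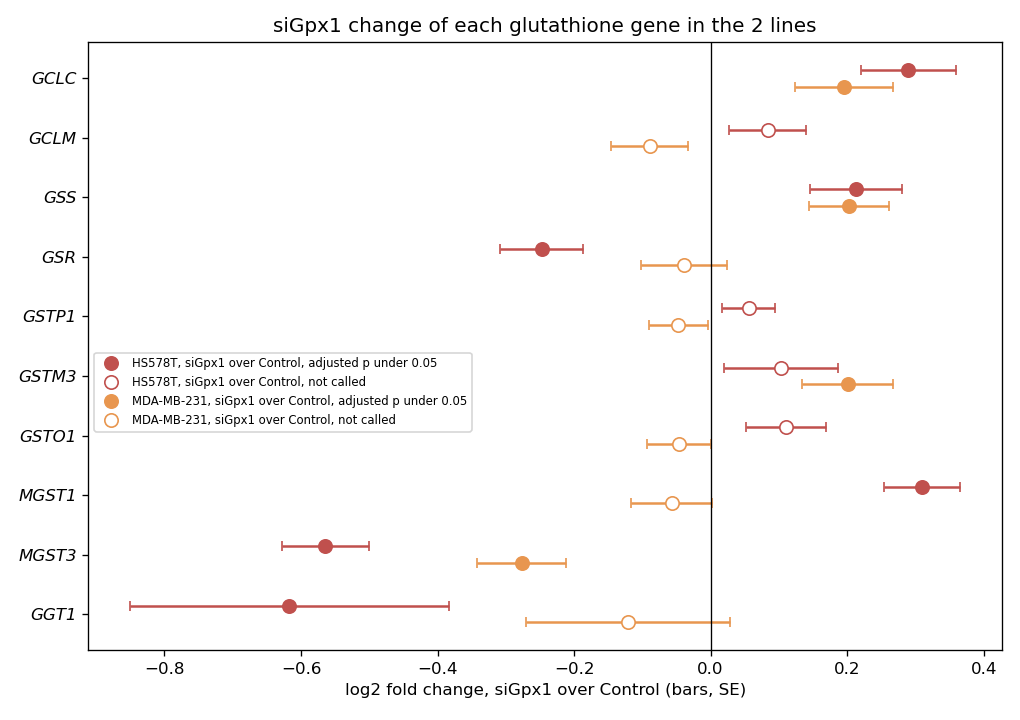
The log2 fold change of siGpx1 over Control for each gene in HS578T (red) and MDA-MB-231 (orange), with bars of 1 SE; filled points passed an adjusted p under 0.05 and open points did not. GCLC and GSS lie right of 0 in both lines, MGST3 lies left in both, and MGST1 lies right in HS578T only at a passing p.

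The size of the siGpx1 change differed between the lines for MGST1 and MGST3, and under the main settings it passed for no other member. With the other mu-class counts added, GSTM3 passed at 0.24 (adjusted p = 0.0135), against 0.10 for its own counts, with adjusted p between 0.0135 and 0.985 over 18 alternatives. The difference, MDA-MB-231 minus HS578T, was -0.37 ± 0.08 for MGST1 (adjusted p = 0.00569) and 0.29 ± 0.09 for MGST3 (adjusted p = 0.0424). MGST1 was higher in HS578T and did not pass in MDA-MB-231, and MGST3 fell further in HS578T. Of all tested genes 17% passed this test, 6.32% higher and 10.7% lower, and 2 of 10 is near that share. The split of the 2428 genes called was 900 higher and 1528 lower, against 1251 and 1000 with DESeq2 size factors and 1117 and 954 on log2(TPM + 1).

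The MGST1 difference was lost without any 1 MDA-MB-231 library, at -0.28 without Control replicate 1, -0.27 without Control replicate 2, -0.23 without siGpx1 replicate 1 and -0.31 without siGpx1 replicate 2. Its adjusted p ranged between 1.01e-04 and 0.177 over the alternatives. The MGST3 difference was lost without HS578T Control replicate 1 (0.32) or replicate 2 (0.28), with adjusted p between 0.00746 and 0.162. Without any 1 of these 6 libraries the number of members called was 1.

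Between the control lines, MDA-MB-231 and HS578T, 9 of the 10 genes differed, 4 higher and 5 lower in MDA-MB-231. Of all tested genes 81.6% passed, 43% higher and 38.6% lower, and each line is 1 line. The median log2 difference of the 10 genes was -0.25, against 0.05 over all tested genes. The groups did not overlap for any of the 10 genes, against 91% of all tested genes.

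GSTP1 had 147 and 155 CPM in MDA-MB-231 Control, against 399.9 and 404 CPM in HS578T Control, a log2 difference of -1.42 ± 0.04 (adjusted p = 3.03e-14). GSTO1 had 139.9 and 142 CPM in MDA-MB-231 Control, against 58.1 and 61.1 CPM in HS578T Control, a log2 difference of 1.24 ± 0.05 (adjusted p = 3.22e-12). GSTP1 made up 36.9 and 37.9% of the TPM of the 5 transferases in MDA-MB-231 Control, against 65.6 and 65.8% in HS578T Control. GSTO1 made up 33.5 and 33.2% in MDA-MB-231 Control, against 9.08 and 9.48% in HS578T Control. The 2 lines thus held different mixes of cytosolic transferase RNA.

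GSTM3 was 1.93-fold higher in MDA-MB-231 Control (log2 difference 0.95 ± 0.08), although with the other mu-class counts added the difference turned to -0.60. MGST1 was 1.37-fold lower and MGST3 1.49-fold lower in MDA-MB-231 Control. GGT1 had 9.75 and 9.91 CPM in MDA-MB-231 Control, against 3.31 and 4.62 CPM in HS578T Control, and was 2.48-fold higher. The log2 difference was 1.31 ± 0.18, and 0.41 with the counts of its related genes added; over 17 alternatives it ranged between 0.41 and 1.56, with adjusted p between 3.83e-07 and 0.0139.

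Of the synthesis genes, GSS was 1.65-fold higher in MDA-MB-231 Control and GCLC 1.299-fold lower, and GSR was 1.501-fold lower. GCLM did not pass, at -0.12 ± 0.06 (adjusted p = 0.0569). It passed without HS578T Control replicate 2 (-0.17), HS578T siGpx1 replicate 1 or 2 (-0.13 each), MDA-MB-231 Control replicate 1 (-0.18) and MDA-MB-231 siGpx1 replicate 1 or 2 (-0.17 each). On log2(TPM + 1) the median of all genes lay at 0.18 in this comparison, and GCLM had 0.02; its adjusted p ranged between 0.00387 and 0.837 over the alternatives.

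Genes around this set were counted in 6 further lists, whose counts are read against the shares of all tested genes given above. The breakdown genes had a median log2 change of 0.04 in HS578T, against 0.04 over all tested genes, and of -0.24 in MDA-MB-231, against 0.00. Of the 9 tested breakdown genes, 3 were higher and 1 lower in HS578T, and 2 higher and 2 lower in MDA-MB-231. OPLAH, the oxoprolinase that recovers glutamate, was higher in both lines, by 0.73 ± 0.19 on the log2 scale in HS578T (adjusted p = 0.00491) and 0.78 ± 0.18 in MDA-MB-231 (adjusted p = 0.00283). Its HS578T call was lost by DESeq2 (0.72), and its adjusted p was at most 0.0749 over 18 alternatives. GGT5, a relative of GGT1 that cleaves leukotriene conjugates, had 15.9 and 13.2 CPM in HS578T siGpx1, against 9.02 and 8.70 CPM in HS578T Control. In MDA-MB-231 it had 9.77 and 9.42 CPM with siGpx1, against 13.3 and 12.4 CPM in Control. GGT5 was thus higher with siGpx1 in HS578T, by 0.71 ± 0.12 on the log2 scale (adjusted p = 1.34e-04), and fell by 0.42 ± 0.11 in MDA-MB-231 (adjusted p = 0.0072).

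The MDA-MB-231 call of GGT5 did not hold when Control replicate 1 (-0.32) or either siGpx1 library (-0.40 for replicate 1, -0.35 for replicate 2) was left out. GGCT, a cyclotransferase of the same pathway, fell by 0.21 ± 0.07 in MDA-MB-231 (adjusted p = 0.0176), which no longer passed when Control replicate 2 or siGpx1 replicate 1 was left out, at -0.10 both times. ANPEP, a surface aminopeptidase, rose by 0.27 ± 0.04 in HS578T (adjusted p = 4.96e-05) and had 0 to 2 counts in each MDA-MB-231 library.

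For cysteine supply, 1 of 8 genes was higher and 3 lower in HS578T, and 2 were higher and 3 lower in MDA-MB-231. Their median log2 change was -0.06 in HS578T; the MDA-MB-231 median was 0.09. SLC1A5, a neutral amino acid transporter, fell by 0.29 ± 0.04 in HS578T and by 0.38 ± 0.04 in MDA-MB-231 (adjusted p = 1.24e-05 and 1.80e-06). MAT2A, which makes S-adenosylmethionine, rose by 0.19 ± 0.04 in HS578T and by 0.17 ± 0.03 in MDA-MB-231 (adjusted p = 2.74e-04 and 7.62e-04). SLC3A2, the heavy chain of the cystine transporter, fell by 0.32 ± 0.05 in MDA-MB-231 (adjusted p = 7.99e-05) and had 0.08 ± 0.05 in HS578T (adjusted p = 0.197), a value that passed without HS578T Control replicate 2 (0.17) and was -0.02 without HS578T Control replicate 1. AHCY, which makes homocysteine, fell by 0.24 ± 0.05 in MDA-MB-231 (adjusted p = 6.07e-04), a call lost without siGpx1 replicate 1 (-0.165). In HS578T it had -0.05 ± 0.05 (adjusted p = 0.441), which passed without HS578T siGpx1 replicate 2 (-0.13).

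Among 15 tested relatives of the glutathione transferases, 2 were higher and 5 lower in HS578T, and 1 was higher and 4 lower in MDA-MB-231. The median log2 change was -0.04 in HS578T; that in MDA-MB-231 was 0.025. CLIC1, a protein with a transferase fold, fell by 0.15 ± 0.03 in HS578T and by 0.23 ± 0.03 in MDA-MB-231 (adjusted p = 0.00181 and 2.88e-05). GSTZ1, the zeta-class enzyme of tyrosine breakdown, fell by 0.37 ± 0.13 in HS578T and by 0.48 ± 0.08 in MDA-MB-231 (adjusted p = 0.0241 and 9.94e-05). Its HS578T call did not hold when Control replicate 1 (-0.35) or either siGpx1 library (-0.34 for replicate 1, -0.42 for replicate 2) was left out.

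PTGES, a prostaglandin E synthase of the same family as MGST1, fell by 0.53 ± 0.06 in MDA-MB-231 (adjusted p = 6.12e-06). In HS578T, where it had 0.68 and 1.38 CPM with siGpx1 against 1.81 and 2.04 CPM in Control, it fell by 0.88 ± 0.31 (adjusted p = 0.0264). That call was lost without Control replicate 1 (-0.97), Control replicate 2 (-0.80) or siGpx1 replicate 1 (-0.48). PTGES2 rose by 0.36 ± 0.06 in HS578T (adjusted p = 1.83e-04) and had 0.07 ± 0.06 in MDA-MB-231 (adjusted p = 0.406).

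The 9 glutaredoxins and other glutathione-dependent enzymes included the largest siGpx1 change among the named pathway genes with counts in both lines. GLO1, the glyoxalase that uses glutathione to clear methylglyoxal, had 55.8 and 54.6 CPM in HS578T siGpx1, against 262 and 260.2 CPM in HS578T Control. MDA-MB-231 held 136 and 132 CPM with siGpx1, against 416 and 423 CPM in Control. The depleted libraries stood far below their controls in both lines, at 4.74-fold lower in HS578T (adjusted p = 7.79e-15) and 3.13-fold lower in MDA-MB-231 (adjusted p = 4.23e-14). GLO1 also holds the full 8-base word in its 3′ UTR on chromosome 6, shown here beside the shorter match of MGST3.
GLO1 site: ggatttaagaGGGCATCAatcagctcaa

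Of these 9 enzymes 4 were higher and 1 lower in HS578T, and 1 was higher and 2 lower in MDA-MB-231. Their medians were 0.08 on the log2 scale in HS578T and -0.10 in MDA-MB-231. ETHE1, a mitochondrial persulfide dioxygenase, rose by 0.60 ± 0.11 in HS578T (adjusted p = 3.92e-04). In MDA-MB-231 it had 0.10 ± 0.12 (adjusted p = 0.573), which passed without Control replicate 1 (0.38) and was -0.05 without Control replicate 2. ADH5, which reduces S-nitrosoglutathione, rose by 0.19 ± 0.04 in HS578T (adjusted p = 8.21e-04) and had -0.11 ± 0.04 in MDA-MB-231 (adjusted p = 0.0511), a value that passed without HS578T siGpx1 replicate 1 or 2 (-0.105 each) and with the replicate number as a block (-0.11). GLRX, glutaredoxin, fell by 0.54 ± 0.09 in MDA-MB-231 (adjusted p = 9.41e-05) and had -0.03 ± 0.07 in HS578T (adjusted p = 0.806).

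Among the exporters of glutathione conjugates, ABCC1 was lower in both lines. ABCC1, which pumps conjugates out of the cell, had 67.9 and 73.4 CPM in HS578T siGpx1, against 181 and 183 CPM in HS578T Control. Its MDA-MB-231 levels were 59.8 and 58.4 CPM with siGpx1, against 101 and 98.5 CPM in Control. It was 2.58-fold lower in HS578T and 1.69-fold lower in MDA-MB-231 (adjusted p = 2.69e-12 and 5.86e-09).

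Over the 7 exporters, 1 was higher and 3 lower in HS578T, and 1 higher and 2 lower in MDA-MB-231. The median log2 change of the list was -0.33 in HS578T, whereas it was 0.10 in MDA-MB-231. ABCC5 rose by 0.26 ± 0.05 in HS578T (adjusted p = 3.28e-04), a call lost on the TPM scales (0.11 on each). In MDA-MB-231 it had 0.10 ± 0.05 (adjusted p = 0.105), and passed without HS578T siGpx1 replicate 1 (0.11) or MDA-MB-231 Control replicate 2 (0.19), but on log2(TPM + 1) it had -0.06. ABCG2 fell by 0.33 ± 0.11 in HS578T and rose by 0.42 ± 0.13 in MDA-MB-231 (adjusted p = 0.0264 and 0.0184). The HS578T call was lost without Control replicate 1 (-0.27) or siGpx1 replicate 1 (-0.235), and the MDA-MB-231 call without Control replicate 2 (0.45) or siGpx1 replicate 1 (0.28). DESeq2 called ABCG2 in neither line (-0.35 in HS578T, 0.46 in MDA-MB-231), nor GSTZ1 in HS578T (-0.39), nor GGT5 (-0.385) and GGCT (-0.17) in MDA-MB-231. On log2(TPM + 0.1) the calls of ABCG2 in both lines, ANPEP in HS578T (0.22) and PTGES in MDA-MB-231 (-0.52) were lost.

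Of 22 NRF2 pathway genes, 10 were higher and 6 lower in HS578T, and 10 were higher and 3 lower in MDA-MB-231. Their median log2 change was 0.21 in each line, against 0.04 and 0.00 over all tested genes. PGD, a pentose phosphate enzyme that makes NADPH, was 1.97-fold higher in HS578T and 1.65-fold higher in MDA-MB-231 (adjusted p = 1.37e-09 and 4.83e-08). SRXN1, sulfiredoxin, was 1.69-fold higher in HS578T and 1.29-fold higher in MDA-MB-231 (adjusted p = 4.68e-09 and 1.11e-05).

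The other named genes of that list fell in both lines. SQSTM1, the autophagy adaptor that binds KEAP1, had 201 and 202 CPM in HS578T siGpx1, against 759.9 and 763 CPM in HS578T Control. The MDA-MB-231 levels were 241 and 243 CPM with siGpx1, against 657 and 664 CPM in Control. It was 3.78-fold lower in HS578T and 2.74-fold lower in MDA-MB-231 (adjusted p = 7.79e-15 and 6.18e-14). TXNRD1, thioredoxin reductase, was 2.94-fold lower in HS578T and 2.03-fold lower in MDA-MB-231 (adjusted p = 6.00e-14 and 3.63e-12). SQSTM1, TXNRD1 and ABCG2 also hold at least 1 of the 7-base words in a 3′ UTR. ABCG2, like GLO1, holds the full 8-base word, which 2.21% of all genes with a searched UTR hold. Unlike GLO1, ABCG2 fell by 0.33 on the log2 scale in HS578T and rose by 0.42 in MDA-MB-231, with the lost calls given above. The UTRs of ABCC1, SLC1A5, CLIC1, GSTZ1 and PTGES, which fell in both lines, hold neither word. Those of PGD, SRXN1, GCLC, GSS, OPLAH and MAT2A, which rose in both lines, hold neither as well. The words were singled out in these same data, so these matches describe sequence and carry no support.

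**Figure D4:**
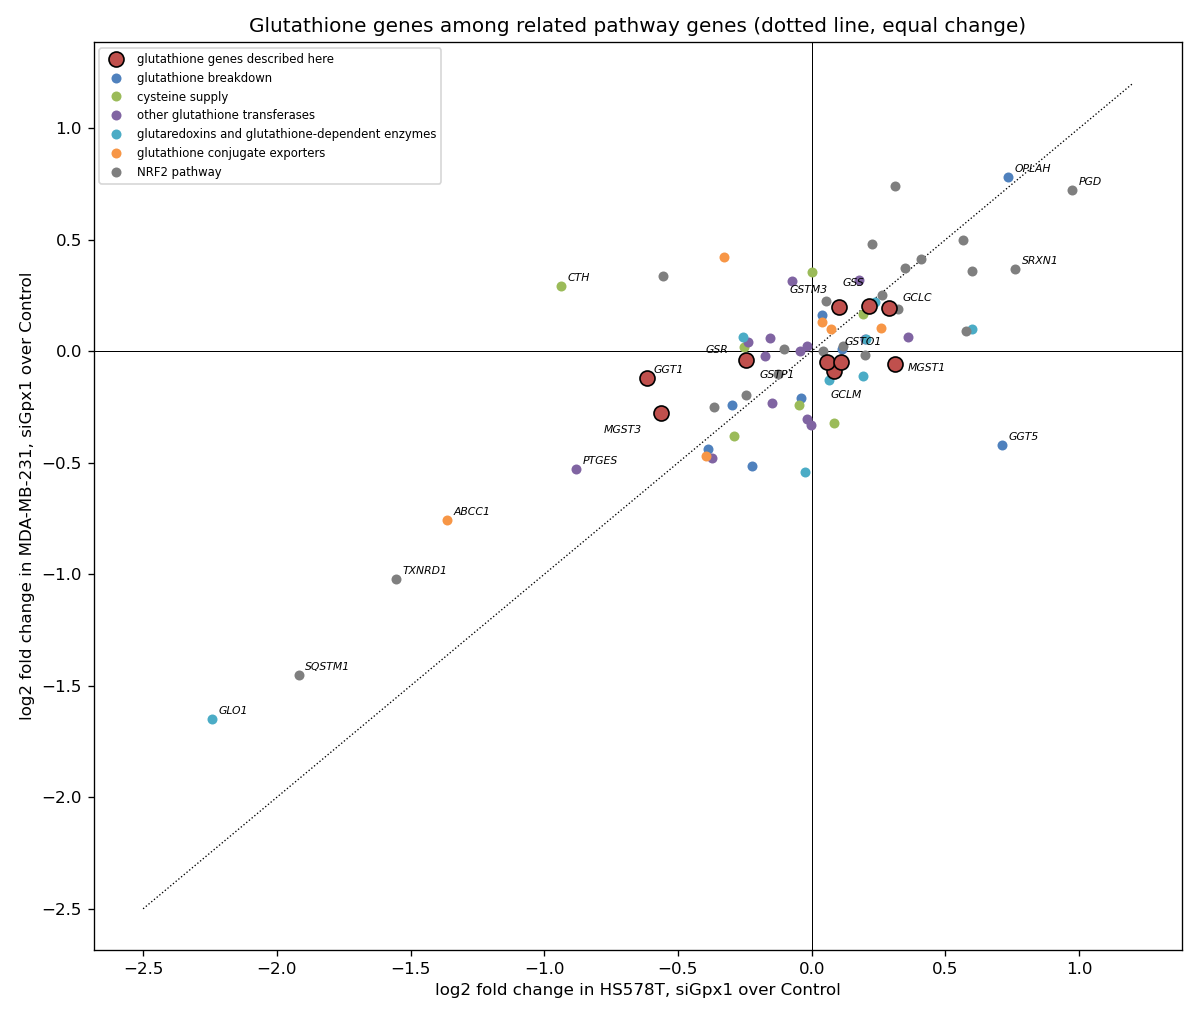
The log2 fold change of siGpx1 over Control in HS578T (x axis) and MDA-MB-231 (y axis) for 76 tested genes, the 10 described here as large red points and the pathway lists in other colours; ANPEP, CBS and ALOX5AP lie outside the axes. The 10 genes lie within 0.62 of 0 on the log2 scale in both lines, while GLO1, SQSTM1, TXNRD1 and ABCC1 lie far to the lower left.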

How the data were processed

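The data are RNA sequencing of 8 libraries, grouped by their titles, 2 per group. Per the submitters' processing notes, reads were checked with FastQC, quantified with RSEM 1.2.12 and assigned to build hg19, and the aligner is not given in the sources used here. The expected counts deposited by the authors are estimated reads per gene, in which ambiguous reads are divided between genes, and 94.7 to 94.9% of the detected values were whole within 0.005. The TPM values and effective lengths were deposited by the authors beside them, and depth was as given above.

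Expected counts were rounded, filtered with filterByExpr, scaled by TMM and fitted with 4 group means (4 residual degrees of freedom) in edgeR 4.0.16. Each comparison used the quasi-likelihood test with Benjamini-Hochberg adjustment at 0.05. SE was taken as the size of the log2 change divided by the root of F. The members and lists were chosen with earlier results of these data known. Named genes are GPX1, the 10 members, up to 4 genes per list with the smallest p in either line, and the 5 most like MGST3; some list members that this rule names are left out of the text. Alternatives were DESeq2 1.42.0 and its size factors, limma-voom (limma 3.58.1), other filters, each line alone, replicate number as a block, limma on log2(TPM + 1) and log2(TPM + 0.1), each library left out, and counts summed with related genes. The steps were tested on simulated data. UTR words were searched in GENCODE 29 transcripts and promoters in the RefSeq table.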

Additional observations from a re-analysis of the deposited data

Results flagged for a closer look

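For 14 of the named genes the siGpx1 change differed between the lines at an adjusted p under 0.05 (edgeR's quasi-likelihood test, adjusted by Benjamini-Hochberg), given as MDA-MB-231 minus HS578T on the log2 scale. Of all tested genes 17% passed this test. The pathway genes among the 14 were named for a small siGpx1 p in these same data, so their count cannot be read against that share. Among the 10 glutathione genes, MGST1 had -0.37 and MGST3 had 0.29, with the left-out-library values given above.

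Of the pathway genes, those with a more negative change in MDA-MB-231 were GGT5 at -1.13, GLRX at -0.51, SLC3A2 at -0.40, SRXN1 at -0.39, PTGES2 at -0.30, ADH5 at -0.30 and PGD at -0.25. Those with a more negative change in HS578T were ABCG2 at 0.75, ABCC1 at 0.61, GLO1 at 0.60, TXNRD1 at 0.53 and SQSTM1 at 0.47. For GGT5 and ABCG2 both libraries of each siGpx1 group moved one way in HS578T and the other way in MDA-MB-231.

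Some of these calls were lost when 1 library was left out. For GLRX this was MDA-MB-231 Control replicate 2 (-0.40) or siGpx1 replicate 1 (-0.33), and for SRXN1 MDA-MB-231 siGpx1 replicate 1 (-0.26). ADH5 was lost without any 1 MDA-MB-231 library, between -0.22 and -0.19. PTGES2 was lost without HS578T Control replicate 1, HS578T siGpx1 replicate 2 or any 1 MDA-MB-231 library, between -0.26 and -0.155. PGD was lost without any 1 library other than HS578T siGpx1 replicate 1, between -0.245 and -0.116. Other settings ended calls too. DESeq2 did not call MGST1 (-0.31), MGST3 (0.35), GLRX (-0.46), ABCG2 (0.81), PTGES2 (-0.24) or PGD (-0.19). On log2(TPM + 1) without a filter, the calls of MGST1 (-0.30), SLC3A2 (-0.34), GLRX (-0.43), ABCG2 (0.70), PTGES2 (-0.23) and PGD (-0.18) were lost. PTGES2 and PGD were also lost with DESeq2 size factors (-0.24 and -0.19), under the stricter filter (-0.19 and -0.15) and on the other TPM scales, and PGD by limma-voom (-0.25) and without a filter (-0.235). The cause was not tested for any of them.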

How the results depend on the processing

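For the 10 glutathione genes, 698 values were recomputed under alternatives; 609 kept their direction and their side of the threshold, 38 were no longer called, 12 became called and 39 changed sign. DESeq2 left 3 of 10 members called in HS578T, 1 in MDA-MB-231 and 0 in the difference between the lines, where it called 1155 genes (673 higher, 482 lower) against 2428. On log2(TPM + 1) without a filter, 2 members were called in MDA-MB-231 and 1 in the difference between the lines. With each library left out, 5 members were called in HS578T each time, 2 to 4 in MDA-MB-231, 1 to 3 in the difference between the lines and 9 or 10 between the controls. Genes called in the difference ranged between 1520 and 2737, the lowest without MDA-MB-231 siGpx1 replicate 1. A lone library of a group was assumed to vary like the other groups.

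No pairing of the libraries by replicate number was seen: the correlation of same-numbered deviations was -0.07 in HS578T and 0.06 in MDA-MB-231. With 2 libraries a group it rests on a single deviation per gene and group, so it cannot exclude pairing. With the replicate block 1 member was called in the difference between the lines, since MGST3 (0.29, adjusted p = 0.0584) was lost, and no other member's call changed.

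Sign changes were among values that had not passed, except for GGT1 in HS578T (0.127 with related genes added) and GSTM3 between the controls (-0.599 likewise). GSTM3 in HS578T turned to -0.059 and the GGT1 difference between the lines to -0.209 in that setting. Under the stricter filter, MDA-MB-231 changes turned to 0.014 for GSR, 0.006 for GSTP1 and 0.007 for GSTO1, and differences to 0.009 for GCLC and 0 for GSTP1. The GSS difference was 0.048 with DESeq2 size factors, 0.047 by DESeq2, 0.004 without a filter, 0.093 under the stricter filter and 0.051, 0.05 and 0.051 on the TPM scales. GCLM between the controls was 0.016 and ABCC5 in MDA-MB-231 -0.059 or -0.06 on the TPM scales. Leaving out each library in turn, the ranges that crossed 0 were, in HS578T, -0.105 to 0.003 for GGCT, -0.018 to 0.171 for SLC3A2, -0.13 to 0.013 for AHCY and -0.142 to 0.063 for GLRX. In MDA-MB-231 they were -0.09 to 0.012 for GCLM, -0.034 to 0.053 for GSR, -0.042 to 0.044 for GSTP1, -0.047 to 0.054 for GSTO1, -0.052 to 0.032 for MGST1, -0.198 to 0.042 for GGT1 and -0.054 to 0.38 for ETHE1. The fitted value of ANPEP, at 0 to 2 counts, ranged between -3.88 and 0. For the difference between the lines they were -0.163 to 0.035 for GCLC, -0.069 to 0.115 for GSS and -0.12 to 0.034 for GSTP1.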
